A study of Mus musculus with 2 samples.

Results

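The Dlk1-Dio3 domain of mouse chromosome 12 holds a large imprinted group of miRNA genes, and its mature miRNAs were examined in small RNA from serum extracellular vesicles (EVs), the membrane particles that cells shed into blood. Members were taken by name from a list of 51 miRNA numbers assigned to the domain, with any letter or arm suffix, and 108 of the 1847 mature miRNAs in the tables matched (5.85%), at least 1 for every number. In RefSeq (GRCm38.p6), 107 of them lie on chromosome 12, on 55 hairpins between positions 109563692 and 109747960, a span of 184 kb. The exception was miR-496b, which matched the name rule but whose hairpin is annotated on chromosome 19 (16314892 to 16315004, minus strand). It was kept among the 108 and left out of the groups by position.

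One EV library was sequenced from iFIRKO mice, in which Cre recombinase is driven by the adiponectin promoter in adipocytes, is activated by tamoxifen (Adipoq-CreERT2) and deletes floxed insulin receptor alleles (Insr flox/flox), and one from control mice, whose genotype the labels give as WT and the study's methods as floxed without Cre. All mice were males of 7 weeks that received tamoxifen at 100 mg/kg on 5 days, controls included, and were examined at day 3 after the last dose. The study's methods state that serum of several mice was pooled for a library, so there was no replicate, and no variance between animals and no test between genotypes could be had. Every interval below covers counting error in 2 libraries only. The library labelled iFIRKO is called the iFIRKO library, and that labelled control the control library, but which genotype each came from is in doubt. By sequencing, the study reports lower levels of most EV-miRNAs in iFIRKO mice. As labelled here, 1225 of the 1847 miRNAs were over 1.5-fold higher in the iFIRKO library and 56 were over 1.5-fold lower. The study names miR-144-3p, miR-451a, miR-16-2-3p and miR-486a-3p as raised in iFIRKO mice by sequencing. It also found them raised by quantitative RT-PCR in individual sera, and all 4 were lower in the library labelled iFIRKO. Their ratios, iFIRKO over control, were 0.506 for miR-144-3p, 0.409 for miR-451a, 0.557 for miR-16-2-3p and 0.549 for miR-486a-3p. Whether the files were exchanged cannot be told from them. If they were, every ratio and every direction below turns to its inverse, so higher and lower refer to the labels and not to the genotypes.

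Imprinted genes are expressed from the copy of 1 parent. In this domain the protein-coding genes Dlk1, which encodes the preadipocyte factor that restrains adipocyte differentiation, Rtl1 and Dio3 are active on the paternal chromosome, and the noncoding transcripts Meg3, Rian and Mirg, together with the miRNA hairpins, are active on the maternal one. A hairpin is cut into a duplex whose 5p and 3p arms can each become a mature miRNA, and the seed, bases 2 to 8 of the mature strand, leads target choice. These miRNAs are known for high levels in embryo, placenta and brain, and for low levels in most adult organs.

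The sequences that carry the results are those of the 12 most abundant members, of miR-134-3p, which had the largest ratio above the floor, and of miR-409-3p, another member with near equal levels. They are from RefSeq (GRCm38.p6), written 5′ to 3′ with the seed in capitals.
miR-127-3p: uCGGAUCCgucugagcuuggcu
miR-543-5p: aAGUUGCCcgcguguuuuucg
miR-382-5p: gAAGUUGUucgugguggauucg
miR-379-5p: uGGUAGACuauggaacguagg
miR-434-3p: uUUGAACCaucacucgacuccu
miR-434-5p: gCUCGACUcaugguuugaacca
miR-541-5p: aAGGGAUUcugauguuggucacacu
miR-770-3p: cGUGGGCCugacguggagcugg
miR-323-5p: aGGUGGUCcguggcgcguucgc
miR-134-5p: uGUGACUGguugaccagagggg
miR-134-3p: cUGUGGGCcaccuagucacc
miR-381-3p: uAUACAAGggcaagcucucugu
miR-540-3p: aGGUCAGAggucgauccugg
miR-409-3p: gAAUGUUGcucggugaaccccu
Mature sequences were found for 104 of the 108 members. The other 4 were miR-376c-3p, miR-485-5p, miR-487b-3p and miR-539-3p. The 104 carried 96 different seeds, and no 2 of the 14 sequences above share one. Only 8 seeds belonged to more than 1 member, each to 2, and no other listed miRNA with a sequence in the RefSeq table had any of these 8.

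The libraries had depths of 3817902 (control) and 2233498 (iFIRKO), and all values were whole counts divided by that depth. Counts from 2 to 9 were missing from both tables, so the lowest value was read as a floor for any count under 10, which is under 2.62 counts per 1000000 of depth (CPM) in the control library and under 4.48 CPM in the iFIRKO library. Marker miRNAs of other sources differed in either direction between the libraries, with ratios of the summed level of 0.686 for 4 erythroid (among them miR-451a and miR-144-3p), 0.828 for 4 platelet, 0.909 for 5 mesenchymal, 0.917 for 5 muscle, 1.24 for 8 neural and 1.68 for 3 liver miRNAs. Directions were mixed within some lists. Single ratios were over 1 for 1 platelet, 2 mesenchymal and 1 muscle miRNA, and under 1 for 1 neural miRNA. All 4 erythroid ratios were under 1 and all 3 liver ratios were over 1. All 29 of these markers were above the floor in both libraries. They held between 0.818% (neural, mostly miR-128-3p) and 12.1% (liver, mostly miR-122-5p) of the control library, and between 1.01% (neural and muscle) and 20.2% (liver) of the iFIRKO library. Their part in the ratios of the Dlk1-Dio3 miRNAs was not tested. miR-148a-3p, the reference miRNA of the study, had a ratio of 1.16.

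The Dlk1-Dio3 miRNAs were a minor part of the EV-miRNA pool in both libraries. Together they had 8470 counts in the control library, or 0.222% of its depth (95% Wilson interval 0.217 to 0.227), and 7809 counts in the iFIRKO library, or 0.350% (0.342 to 0.357). The ratio of the shares, iFIRKO over control, was 1.58 (95% interval 1.53 to 1.63) as labelled, and would be 0.635 (0.615 to 0.654) with the labels exchanged. By mean CPM over both libraries, no member was among the 100 most abundant miRNAs. The highest member by that mean, miR-127-3p, ranked at 160, and 27 members were among the first 500. The 12 most abundant members held 50.1% of the members' counts in the control library and 41.4% in the iFIRKO library. Floor values were few, as 100 of the 108 members were above the floor in both libraries, with a median of 34 counts per member in the control library and 46 in the iFIRKO library over all 108.

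At the 1.5-fold threshold that the study used, 69 members (63.9%) were higher in the iFIRKO library, 3 (2.78%) were lower and 36 lay between. Among all 1847 miRNAs, 66.3% were higher and 3.03% were lower by the same rule, so the members' counts lay near the background and are no result about the domain. With the labels exchanged, 3 members would be higher and 69 lower. Past 2-fold, 41 members were higher, beside 43% of all miRNAs. The median ratio was 1.71 over the 108 members (0.77 on the log2 scale), the same over the 100 above the floor and with floor values set to 10 counts, and 1.84 over all miRNAs. These numbers rest on the division by depth, because the control library was 1.71-fold deeper. Of the 100 members above the floor, 47 had more counts in the iFIRKO library, 47 had fewer and 6 had exactly equal counts. With the TMM scaling of edgeR, which divides all ratios by 1.81 (a shift of 0.85 on the log2 scale), 22 members (20.4%) were higher and 16 (14.8%) were lower, against 69 and 3 as deposited. Over all miRNAs the same scaling gave 21% higher and 19.5% lower.

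**Figure D1:**
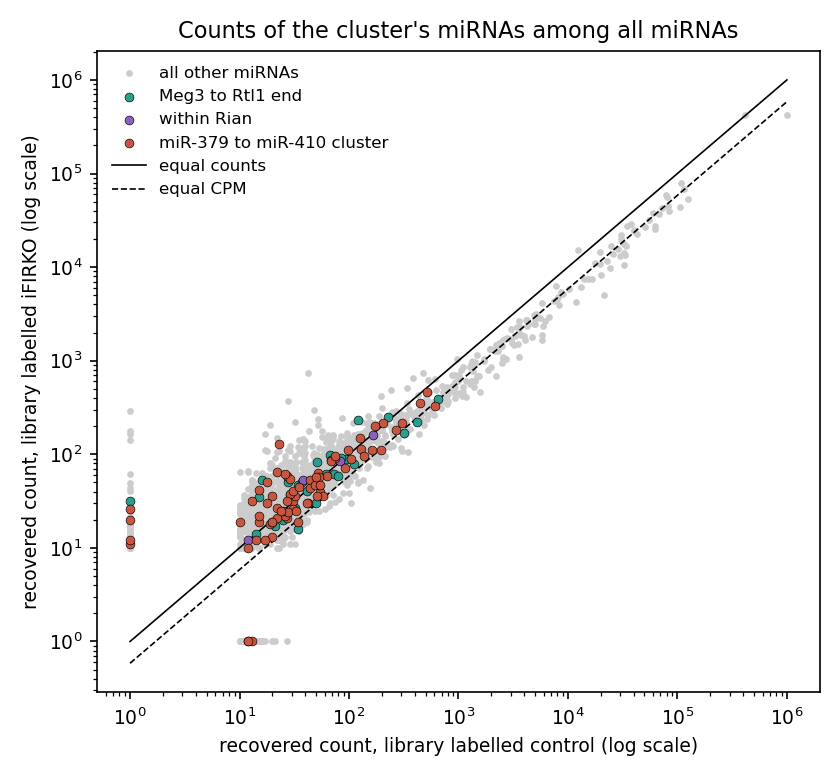
Recovered counts in the control library (x axis) and the iFIRKO library (y axis), both on log scales, with the domain's miRNAs coloured by position over all other miRNAs in grey. The solid line marks equal counts and the broken line equal CPM, and points at a count of 1 are floor values. The coloured points scatter about the solid line at low counts. Of the 19 with a mean count of 100 to 1000, 4 lie below the broken line and 6 above the solid line.

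Counting error left many single ratios open. The 95% interval of the ratio lay above 1 for 59 of the 100 members above the floor, against 62.7% of all miRNAs above the floor, and below 1 for none, against 5.13%. It included 1 for 41 members, and it included 1.71, the ratio of equal counts, for 70. The background is not matched in abundance. Of the 89 miRNAs with intervals below 1, 59 had mean counts over 1000, a class without members. Between mean counts of 10 and 100, the interval was below 1 for 4 of the 1236 others above the floor. The order of the members was similar in both libraries, with Spearman's rho of 0.83 and Pearson's r of 0.88 on log2 CPM over the 100 members, values that share library preparation and span a wide range of abundance. Over the 1636 other miRNAs above the floor rho was 0.86.

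From mean counts of 10 upward, the median ratio was lower in the class of higher counts, as it was outside the domain. Over single members the correlation with mean count was weak. Between mean counts of 10 and 100 lay 84 members, whose median ratio was 1.77, and 58 were over 1.5-fold higher (69.0%). For the 1266 other miRNAs of that class the median ratio was 2.02, with 77.2% higher. Between 100 and 1000, 19 members had a median ratio of 1.37, with 9 higher (47.4%), beside 1.45 and 47.0% for the 283 others. No member had a mean count over 1000. The 5 members under 10 were all at the floor in 1 library. Across the 100 members above the floor, rho between mean count and log2 ratio was -0.15, and it was -0.31 across the 1636 others, where both axes are made from the same counts.

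The most abundant members were then taken one by one, in the order of their mean CPM. miR-127-3p, whose gene is antisense to Rtl1 and which can direct cleavage of the Rtl1 transcript, had 646 counts (169 CPM) in the control library and 394 counts (176 CPM) in the iFIRKO library, a ratio of 1.04 (95% interval 0.917 to 1.18). miR-543-5p was at 135.9 CPM (519 counts) and 209 CPM (467 counts), with a ratio of 1.54 (1.35 to 1.75). miR-382-5p was at 159 CPM (606 counts) and 146 CPM (325 counts), with a ratio of 0.917 (0.799 to 1.051). The first and the third of these therefore had near equal levels, and only miR-543-5p was past 1.5-fold.

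miR-379-5p, from the first hairpin of the large distal cluster, had 446 counts (117 CPM) in the control library and 357 counts (160 CPM) in the iFIRKO library, a ratio of 1.37 (1.19 to 1.58). miR-434-3p was at 108 CPM (414 counts) and 99.4 CPM (222 counts), with a ratio of 0.917 (0.775 to 1.08), and its sister arm miR-434-5p was at 82.5 CPM (315 counts) and 75.2 CPM (168 counts), with a ratio of 0.912 (0.751 to 1.10). miR-541-5p was at 79.9 CPM (305 counts) and 97.2 CPM (217 counts), with a ratio of 1.22 (1.02 to 1.45). Both arms of Mir434 thus stood just under equal levels, within counting error of 1.

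miR-770-3p, from the hairpin within Meg3, was at 59.98 CPM (229 counts) and 111 CPM (249 counts), with a ratio of 1.86 (1.55 to 2.23). miR-323-5p was at 53.4 CPM (204 counts) and 97.6 CPM (218 counts), with a ratio of 1.83 (1.502 to 2.22). miR-134-5p, known as a regulator of dendritic spines through Limk1, was at 69.9 CPM (267 counts) and 81.0 CPM (181 counts), with a ratio of 1.16 (0.954 to 1.40). Its interval included 1, unlike those of the other two.

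miR-381-3p had 173 counts (45.3 CPM) in the control library and 202 counts (90.4 CPM) in the iFIRKO library, a ratio of 1.996 (1.62 to 2.46). miR-540-3p was at 31.7 CPM (121 counts) and 103 CPM (230 counts), with a ratio of 3.25 (2.60 to 4.08), the largest of the 12. As a group, the 12 had a median ratio of 1.29, 5 (41.7%) were over 1.5-fold higher and none was over 1.5-fold lower. Of all miRNAs 66.3% were higher and 3.03% lower. Of the 283 miRNAs outside the list with mean counts of 100 to 1000, 47.0% were higher and 2.47% lower. The summed level of the 12 had a ratio of 1.30 (1.24 to 1.36) against 1.85 (1.78 to 1.93) for the other 96 members. The order of the 12 by level changed between the libraries, from miR-127-3p, miR-382-5p and miR-543-5p first to miR-543-5p, miR-127-3p and miR-379-5p first. Of the 11 pairs of neighbours in that order, 9 in the control library and 10 in the iFIRKO library had overlapping 95% Poisson intervals.

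**Figure D2:**
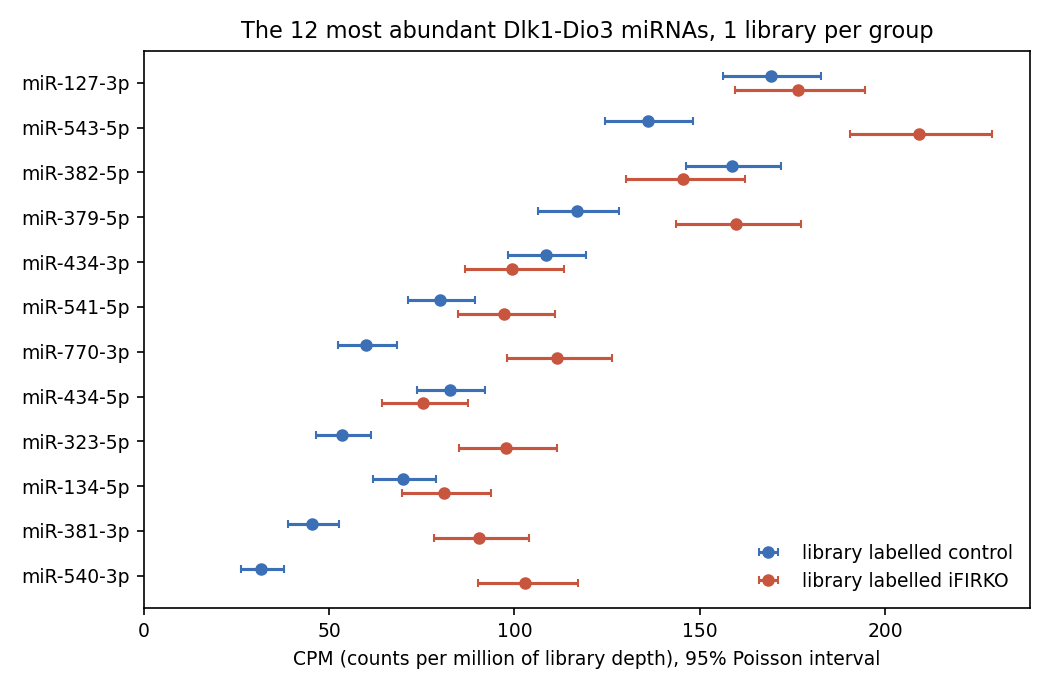
Level in CPM (x axis) of the 12 most abundant Dlk1-Dio3 miRNAs (y axis) in the control library (blue) and the iFIRKO library (red), with 95% Poisson intervals from the counts. The intervals of miR-127-3p, miR-382-5p, miR-541-5p, miR-134-5p and both arms of miR-434 overlap between the libraries, and miR-540-3p, at 31.7 and 103 CPM, has the largest ratio of the 12.

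The members were next grouped by position. The proximal group runs from Meg3 to the end of Rtl1 and held 28 members on 15 hairpins, with a summed level of 0.0731% of the control library and 0.109% of the iFIRKO library (ratio 1.49, 1.41 to 1.58). The middle group lies in introns of Rian, and its 2 hairpins gave 4 members with 0.00778% and 0.0139% (ratio 1.78, 1.52 to 2.10). The distal group, from Mir379 to Mir410 and on to Mir3072, held 75 members on 38 hairpins with 0.140% and 0.224% (ratio 1.59, 1.53 to 1.66). Median ratios were 1.71, 1.72 and 1.71 in the same order, and 17 of 28, 4 of 4 and 47 of 75 members were over 1.5-fold higher, beside 66.3% of all miRNAs. The groups overlapped widely, and a difference between them was not tested.

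Within the proximal group, 6 hairpins (Mir431, Mir433, Mir127, Mir434, Mir432 and Mir136) lie opposite an exon of Rtl1 in GENCODE M21, a retrotransposon-derived gene needed for placental capillaries. Their 11 mature miRNAs had a summed level with a ratio of 1.17 (1.09 to 1.25), 6 (54.5%) were over 1.5-fold higher and none was over 1.5-fold lower, beside 66.3% and 3.03% of all miRNAs. miR-136-5p had 50 and 30 counts in the control and iFIRKO libraries (ratio 1.03, 0.630 to 1.64), and miR-431-5p had 111 and 78 (1.20, 0.887 to 1.62). miR-431-3p had 94 and 88 counts (1.6003, 1.18 to 2.16). miR-433-3p had 85 and 91 counts (1.83, 1.35 to 2.49) and miR-433-5p had 29 and 37 (2.18, 1.31 to 3.68). miR-432 had 37 and 50 counts (2.31, 1.48 to 3.63), and miR-136-3p had 61 in both (1.71, 1.18 to 2.48). The intervals of miR-127-3p, both arms of miR-434, miR-431-5p and miR-136-5p included 1, and those of the other 6 lay above 1.

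Mir3071 lies on the minus strand across Mir136, and the arms of both hairpins are exact complements over the stretch they share, 20 bases for the pair printed here, from chr12:109595331-109595352 (plus strand) and chr12:109595329-109595350 (minus strand).
miR-136-5p: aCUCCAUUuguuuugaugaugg
miR-3071-3p: aUCAUCAAaacaaauggagucc
miR-3071-3p had 21 and 17 counts (ratio 1.38, 0.686 to 2.75), and miR-3071-5p had 79 and 59 counts (1.28, 0.895 to 1.81). Counts were thus listed from both strands of this site, and both intervals of Mir3071 included 1. Mir299a and Mir299b form a second such pair. Their 3p arms are identical over the 18 bases of miR-299b-3p, and how the authors divided such counts is not stated, so 31 and 32 counts for miR-299a-3p and 27 and 21 for miR-299b-3p are uncertain as separate values. The same holds for their 5p arms, because the sequence of miR-299b-5p lies whole within that of miR-299a-5p.

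Between Meg3 and Rtl1, the ratios ran from 0.804 to 5.66 above the floor. Both arms of Mir540 were over 2-fold higher, with miR-540-5p at 67 and 98 counts (ratio 2.50, 1.81 to 3.46). miR-673-3p had 16 and 53 counts (5.66, 3.19 to 10.6), and miR-493-3p had 28 and 51 (3.11, 1.93 to 5.13). miR-3070-5p had 51 and 83 counts (2.78, 1.94 to 4.02), and it can arise from either of the hairpins Mir3070a and Mir3070b. By contrast miR-337-5p had 41 counts in both libraries (1.71, 1.08 to 2.70) and miR-337-3p had 32 and 27 (1.44, 0.831 to 2.48). In the middle group, miR-370-3p had 164 and 161 counts (1.68, 1.34 to 2.10) and miR-341-3p had 83 and 84 (1.73, 1.26 to 2.37), nearly the ratio of equal counts.

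**Figure D3:**
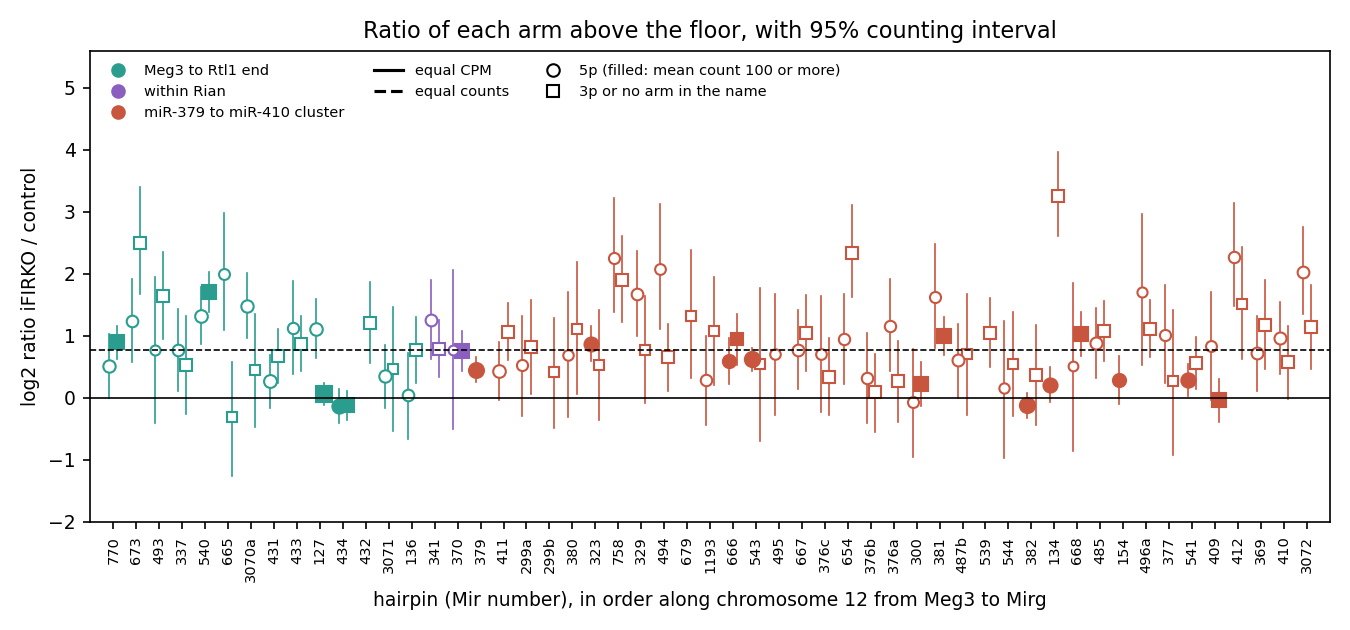
The log2 ratio of iFIRKO over control (y axis) for the members above the floor on chromosome 12, with 95% counting intervals, by hairpin in chromosomal order (x axis). The solid line marks equal CPM and the broken line equal counts at 0.77; filled points, with a mean count of at least 100, lie near the solid line for miR-127-3p, miR-434, miR-382-5p and miR-409-3p, and miR-134-3p stands highest.

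In the distal group the well-populated members ran from near equality to about 2-fold. miR-409-3p had 197 and 112 counts (51.6 and 50.1 CPM), a ratio of 0.972 (0.764 to 1.23). miR-300-3p had 161 and 110 counts (1.17, 0.908 to 1.498), and differs in 3 of 22 bases from miR-381-3p, at 1.996. miR-154-5p had 35.6 and 43.4 CPM (1.22, 0.930 to 1.59). The higher end held miR-668-3p with 126 and 150 counts (2.03, 1.595 to 2.60), miR-666-3p with 98 and 110 (1.92, 1.45 to 2.55) and miR-666-5p with 130 and 115 (1.51, 1.17 to 1.96).

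The miR-376 group, known for adenosine-to-inosine editing of its primary transcripts, was near the level of equal CPM in its 3p arms. miR-376a-3p had 51 and 36 counts (ratio 1.21, 0.765 to 1.89), miR-376b-3p had 58 and 36 (1.06, 0.680 to 1.64) and miR-376c-3p had 54 and 40 (1.27, 0.820 to 1.94). All 3 intervals included 1. miR-376b-5p and miR-376c-5p differ by 1 of 22 bases and had 41 and 30 (1.25) and 22 and 21 counts (1.63). miR-376a-5p had 29 and 38 counts (2.24, 1.35 to 3.77), and of the 6 arms it alone had an interval above 1.

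Several low members had large ratios. miR-654-3p had 22 and 65 counts (ratio 5.05, 3.07 to 8.60), miR-412-5p had 18 and 51 (4.84, 2.78 to 8.81) and miR-758-5p had 15 and 42 (4.79, 2.60 to 9.29). miR-494-5p had 13 and 32 counts (4.21, 2.15 to 8.74), and miR-3072-5p had 26 and 62 (4.08, 2.54 to 6.71). In the other direction no member above the floor was over 1.5-fold lower. The smallest ratio was that of miR-665-3p, with 34 and 16 counts (0.804, 0.415 to 1.498).

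The rule that named members with a mean count of at least 50 gave, as the largest ratios, miR-134-3p, miR-540-3p, miR-3070-5p, miR-540-5p, miR-496a-3p and miR-127-5p. miR-134-3p had 23 counts (6.02 CPM) in the control library and 129 counts (57.8 CPM) in the iFIRKO library, a ratio of 9.59 (6.12 to 15.7). miR-496a-3p had 75 and 95 counts (2.17, 1.58 to 2.97), and miR-127-5p had 69 and 87 (2.16, 1.55 to 3.00). The smallest ratios under that rule were those of miR-434-5p, miR-434-3p, miR-382-5p, miR-409-3p, miR-127-3p and miR-134-5p, all given above, and the interval of each included 1. The minor arms of these hairpins were lower in level. miR-770-5p had 73 and 61 counts (1.43, 0.9997 to 2.03), miR-541-3p had 104 and 90 (1.48, 1.10 to 1.98) and miR-381-5p had 20 and 36 (3.08, 1.73 to 5.61). miR-382-3p had 33 and 25 counts (1.29, 0.738 to 2.25), miR-323-3p had 26 and 22 (1.45, 0.781 to 2.65) and miR-3070-3p had 25 and 20 (1.37, 0.720 to 2.56). The interval was above 1 for miR-541-3p and miR-381-5p. miR-409-5p had 24 and 25 counts (1.78, 0.976 to 3.26), miR-543-3p had 14 and 12 (1.47, 0.619 to 3.41) and miR-496a-5p had 10 and 19 (3.25, 1.44 to 7.82).

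Arms of the same hairpin were compared because a scaling of the library cancels in their ratio. Both arms were above the floor for 45 of the 51 hairpins with 2 listed arms, and the same arm was the major one in both libraries for 33 of them. It switched for 9, and the arms were equal in at least 1 library for 3. The 95% interval for the change of the 5p/3p ratio excluded 1 for 7 hairpins (15.6%), against 31% of the 610 such pairs over all miRNAs. These shares are not matched in abundance, and the interval narrows as counts rise. No member had a mean count over 1000, as 118 other miRNAs did, so the lower share is no result about arm use in the domain. Across the 45 hairpins, rho between the log2 ratios of both arms was 0.26 and Pearson's r was 0.18, where the arms share library and depth. Among the 7 hairpins the 5p share was lower in the iFIRKO library for 4 and higher for 3. Over all 45 hairpins, the median ratio was 1.71 for major and for minor arms.

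Mir134 had the clearest change of arm use. Its 5p arm held 92.1% of the hairpin's counts in the control library and 58.4% in the iFIRKO library, and the 5p/3p ratio in the iFIRKO library was 0.121 times that in the control library (95% interval 0.0746 to 0.196). Mir127 moved from 9.65% to 18.1% for the 5p arm (2.07, 1.47 to 2.90), with miR-127-3p the major arm in both. For Mir665 the 5p share was 30.6% and 68.6% (4.96, 2.12 to 11.6), on 15 and 35 counts for 5p and 34 and 16 for 3p. The other hairpins with intervals excluding 1 were Mir494 (2.67, 1.28 to 5.59), Mir673 (0.417, 0.205 to 0.851), Mir654 (0.381, 0.193 to 0.751) and Mir411 (0.645, 0.418 to 0.996). In Mir434 the 5p share was 43.2% and 43.1% (0.995, 0.776 to 1.27). Shares were also close in Mir543 (97.4% and 97.5%) and Mir370 (6.82% and 6.94%), but with 12 to 14 counts in the minor arm their intervals, 0.481 to 2.29 and 0.445 to 2.33, allow an over 2-fold change either way.

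**Figure D4:**
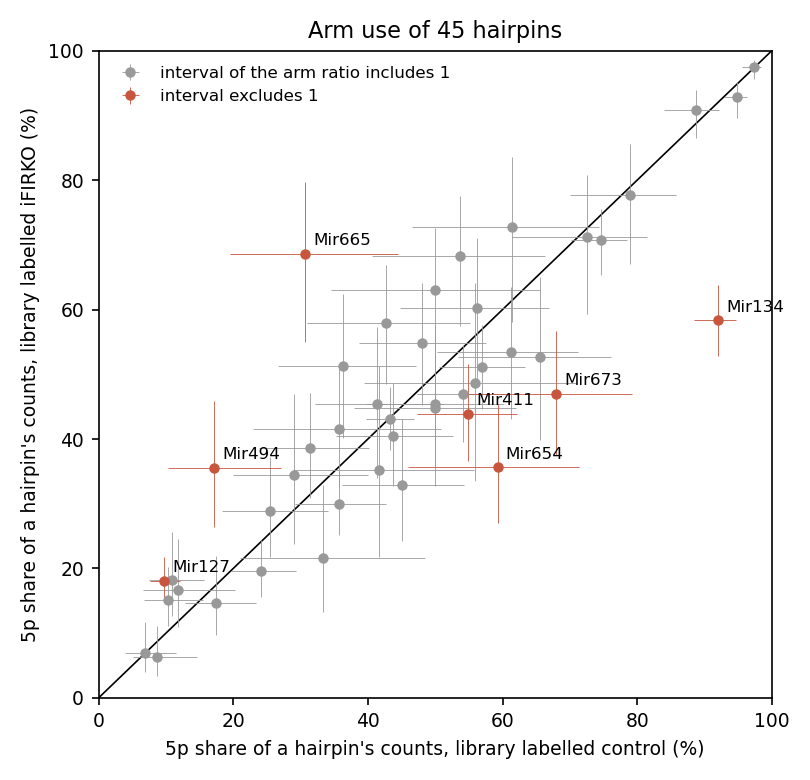
The 5p share of each hairpin's counts, in percent, in the control library (x axis) and the iFIRKO library (y axis) for 45 hairpins, with 95% Wilson intervals. Hairpins on the diagonal had the same 5p share in both libraries. The 7 named in red have an interval of the arm ratio that excludes 1, and Mir134 is at 92.1% and 58.4%.

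The 8 shared seeds were each carried by a pair of members, with ratios of the summed level between 1.36 and 3.42. A floor value was entered in these sums as 1 count, though it stands for any count under 10. This held for miR-3070-2-3p and miR-379-3p in the control library and miR-1197-5p in the iFIRKO library. The 3.42 was that of miR-3070-2-3p with miR-3070-3p and is uncertain. The largest ratio without a floor value was 2.41, for miR-410-5p with miR-494-5p. The pair with most counts was miR-379-5p and miR-1193-5p, with 488 and 387 counts in all (ratio 1.36); it is printed to show how far the rest of the strand differs beyond a common seed.
miR-379-5p: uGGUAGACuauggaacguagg
miR-1193-5p: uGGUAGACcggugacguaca
miR-1193-5p alone had 42 and 30 counts (1.22, 0.738 to 1.998). The seed AUGUAAC was carried by miR-379-3p and miR-411-3p, with 76 and 118 counts in all when the floor value of miR-379-3p is taken as 1. Of these, miR-411-3p had 75 and 92 (2.10, 1.53 to 2.88).

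The floor concerned 8 members, 5 in the control library and 3 in the iFIRKO library, and a ratio against it is a bound taken at 10 counts. miR-3070-2-3p had 32 counts in the iFIRKO library and was at least 5.47-fold higher. miR-379-3p (26 counts) was at least 4.44-fold, miR-539-5p (20 counts) at least 3.42-fold, miR-154-3p (12 counts) at least 2.05-fold and miR-679-5p (11 counts) at least 1.88-fold higher there. miR-3070-2-3p differs in 2 of 22 bases from miR-3070-3p, and miR-379-3p in 2 of 22 from miR-411-3p. How reads were assigned between such sequences is not stated. All 3 members that counted as over 1.5-fold lower were at the floor in the iFIRKO library: miR-1197-5p with 13 counts in the control library, and miR-299b-5p and miR-495-3p with 12 each. At 10 counts none of the 3 was lower, so a lower level was not detectable at this depth. Near the 1.5-fold threshold, 11 members lay within 5% of it, 4 just inside from miR-666-5p (1.51) to miR-494-3p (1.57) and 7 just outside from miR-410-3p (1.49) down to miR-299a-5p (1.43).

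Beside the domain, 10 mature miRNAs of other imprinted genes were examined. Their summed level had a ratio of 1.005 (0.9496 to 1.06), with a median ratio of 1.29. Past 1.5-fold, 4 (40%) were higher and 1 (10%) was lower, beside 66.3% and 3.03% of all miRNAs. miR-335-5p, from an intron of the paternally expressed Mest, had 1084 and 418 counts (0.659, 0.587 to 0.739), whereas its other arm miR-335-3p had 55 and 73 (2.27, 1.58 to 3.28). miR-298-5p and miR-296-5p, from the Gnas domain, had 267 and 298 CPM (1.11, 1.01 to 1.23) and 554 and 338 counts (1.04, 0.908 to 1.196). The summed ratio of 1.58 for the Dlk1-Dio3 miRNAs and of 1.005 here were not compared by a test, and the lists differ in abundance, with medians of 34 and 101.5 counts per miRNA in the control library.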

How the data were processed

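Small RNA libraries were made with a QIAseq kit from EV RNA of pooled serum, 1 for each group, and sequenced on a NextSeq500. For read analysis the authors used the GeneGlobe platform of Qiagen, and the submitters' processing notes name the genome build mm10. The aligner, the miRNA release and the use of molecular identifiers are not given in the sources used here. The deposited signal is each miRNA's count over a constant, with 1 such constant for each library. Of the values in each library, 100% were whole within 0.05 counts after multiplication by the constant, which was taken as the depth. CPM is the deposited signal multiplied by 1000000. No test across miRNAs was run, since each group had 1 library.

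Ratios carry Clopper-Pearson intervals of the iFIRKO share of both counts. Shares carry Wilson intervals, levels Poisson intervals, and arm ratios normal intervals on the log odds, all at 95%. Hairpin positions and sequences came from RefSeq (GRCm38.p6) and overlaps from GENCODE M21, both on the coordinates of mm10. The members, the position groups and the lists of erythroid, platelet, mesenchymal, muscle, neural, liver and other imprinted miRNAs were chosen with earlier results of these data known. The members named in full were the 12 most abundant, and the 6 largest and 6 smallest ratios among members above the floor with a mean count of at least 50, with their other arms. Further names are examples chosen after their values were seen. Alternatives were 4 scalings (TMM by edgeR 4.0.16 in R 4.3.3), floor values at 10 counts or left out, 1 CPM added, mean counts of at least 10 or 100 and a 2-fold threshold. Scripts ran in Python 3.11.15 and were tested on simulated data.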

Additional observations from a re-analysis of the deposited data

How the results depend on the processing

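No paired analysis was possible because control and iFIRKO consist of 1 library each, and for that reason no library could be left out. Equal totals over the listed miRNAs and 1 CPM added moved none of the values below past its counting error. Dividing by the median ratio of miRNAs whose mean count reached 100, or by that of miR-148a-3p, the median log2 ratio of the members became 0.51 and 0.55, and the ratio of their summed level was 1.31 and 1.35. With TMM the median was -0.081, and so were the proximal and distal medians, and the middle median was -0.072. The summed level then had a ratio of 0.872, miR-543-5p one of 0.851 and miR-409-5p (24 and 25 counts) one of 0.985. With TMM 22 members (20.4%) were higher and 16 (14.8%) lower, beside 21% and 19.5% of all miRNAs. Counts with no scaling by depth, an alternative added after seeing the data, gave a median of 0, a summed ratio of 0.922, 0.900 for miR-543-5p, and 22 higher and 13 lower. Exchanged labels, also added after seeing the data, turn the median to -0.77 and the summed ratio to 0.635, with 3 higher and 69 lower. A mean count of at least 100 gave a median of 0.45 with 9 of 19 members higher and 0 lower. Of the 283 other miRNAs with mean counts of 100 to 1000, 47.0% were higher and 2.47% lower. A 2-fold threshold gave 41 members higher, beside 43% of all miRNAs. No member was lower, a count of 0, with floor values at 10 counts, without them or at a mean count of at least 10. With all 4 counts of a hairpin at least 100, 1 hairpin was left and 0 intervals of the arm ratio excluded 1. Scalings act by 1 factor on every miRNA, and filters leave fewer members. Of the 28 named members, 21 moved beyond their counting error with TMM and 2 reversed. Depth limits most members, whose median count was 34 in the control library.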

Other observations

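Hairpins that lie in the same interval of chromosome 12 but outside the list of numbers were looked up after the data were seen. miR-1188-5p, whose hairpin lies between Mir341 and Mir370, had 132 counts in the control library and 224 in the iFIRKO library, a ratio of 2.90 (95% counting interval 2.33 to 3.62), and miR-1188-3p had 39 and 33 counts (1.45, 0.882 to 2.36). miR-3544-3p and miR-3544-5p, from the strand opposite Mir337, had 32 and 47 counts (2.51, 1.57 to 4.07) and 21 and 24 counts (1.95, 1.04 to 3.69). miR-453 had 89 and 58 counts (1.11, 0.786 to 1.57) and miR-882 had 19 and 12 (1.08, 0.478 to 2.34). miR-496b, the member on chromosome 19, had 21 and 67 counts (5.45, 3.30 to 9.38). These directions too follow labels that may be exchanged.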
